A study of Homo sapiens with 12 samples.

Results

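Thiamine, vitamin B1, enters human cells on 2 related carriers and serves as a cofactor once it has been phosphorylated. The present data follow the 3 carriers of the SLC19 family across 12 RNA-seq libraries of the human hepatoma line PLC/PRF/5. They were found by symbol among 57820 listed genes, and all 3 passed the filter on low counts that left 20559 genes for testing. SLC19A3 had been picked from these same libraries for its higher level in both knockout lines. Its values are therefore given as a description with no test, and tests are given for SLC19A1 and SLC19A2 and for the pathways around them.

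SLC19A2 and SLC19A3 are the thiamine carriers of the plasma membrane. SLC19A1 is the reduced folate carrier, which takes up folates and antifolate drugs and can carry phosphorylated thiamine. In mitochondria thiamine diphosphate, the active form, serves the pyruvate, 2-oxoglutarate and branched-chain 2-oxoacid dehydrogenase complexes, while transketolase uses it in the cytosol and HACL1 in peroxisomes. The liver takes up thiamine from the portal blood and relies on these enzymes for carbohydrate and amino acid breakdown.

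The libraries fell into 5 groups by their titles: control (4 libraries, genotype given as WT), KO1 and KO2 (2 libraries each), and KO1_RES and KO2_RES (2 each). KO denotes knockout of HKDC1, a member of the hexokinase family, and KO_RES the knockout with HKDC1 put back, called rescue here. The names KO1, KO2, KO1_RES and KO2_RES stand for the libraries so labelled. The labels give neither the knockout method, nor whether a line is a single clone, nor the oxygen level, although the series is about hypoxia. They also do not say whether libraries of a group came from separate cultures, and the p-values may then reflect technical spread alone. Title and genotype field name different groups in 4 libraries (KO1 number 2, KO2 number 2, KO1_RES number 1 and KO2_RES number 1) and the same group in 8.

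Between 36075411 and 71853616 reads were assigned to genes per library. HKDC1 itself, in CPM (reads scaled to library size with TMM factors), stood at 123.6 to 183.5 in the controls, at 153.4 and 146.1 in KO1, at 91.4 and 49.2 in KO2, at 1240 and 1544 in KO1_RES and at 508.3 and 621.6 in KO2_RES. Its RNA thus lay within the control range in KO1 and below it in KO2, so RNA level does not check the knockout label of line 1, and the rescue libraries stood above all others. Controls 1 and 2 differed from controls 3 and 4: ALB, the albumin gene, was at 906.9 and 822.5 CPM in the first pair and at 23.1 and 28.2 in the second. Of 11 hepatocyte and hepatoma markers, 10 were above 3 counts in every library, with summed levels of 12095 to 22870 CPM in control, 5154 to 28476 in knockout and 4190 to 34607 in rescue. Of these 11 markers 0 rose and 6 fell for the mean of both lines (edgeR, median log2 fold change -1.51 beside -0.02 over all genes), 5 fell in KO1 and 2 in KO2. Over all genes edgeR called 9.36%, 9.74% and 5.24% lower in the same comparisons. APOB, counted among the 6, had log2 fold changes of 1.44 in KO1 (edgeR, adjusted p = 0.0597) and -7.44 in KO2 (adjusted p = 0.000258), so its mean fall came from KO2. The part of these markers in the differences given next was not tested. Fibroblast markers summed to at most 11.8 CPM and endothelial markers to at most 2.02 CPM in any library. The blood cell list reached 922.4 CPM through LYZ, a lysozyme gene, while PTPRC and CD3E, which define leukocytes and T cells, never exceeded 0.0895 CPM.

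SLC19A3 (ENSG00000135917.9, chromosome 2) encodes thiamine transporter 2, the high-affinity carrier. It stood at 3.17, 3.20, 2.66 and 4.17 CPM in controls 1 to 4, at 39.8 and 47.1 in KO1 and at 32.0 and 31.1 in KO2. In the rescue libraries it stood at 25.2 and 40.4 CPM in KO1_RES and at 24.3 and 26.6 in KO2_RES. All 8 knockout and rescue libraries were therefore above all 4 controls, and the groups were far apart: the lowest of the 8 was 5.82 times the highest control. These levels rested on 157 to 235 reads in each control and on 1286 to 2489 reads in each of the other libraries. Of the 20559 genes tested, 777 (3.78%) also had all 8 libraries above all 4 controls. Among genes with a read in some control, 11 including SLC19A3 showed a gap at least as wide as that of SLC19A3.

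Mean levels of SLC19A3 were 11.4 times the control mean in knockout, 13.2 times in KO1 and 9.57 times in KO2. The fitted log2 fold change was 3.49 ± 0.19 (SE) for the mean of both lines, 3.72 ± 0.20 for KO1 and 3.26 ± 0.20 for KO2. Across the alternatives run it lay between 3.20 and 3.60 for the mean of the lines, 3.59 and 3.83 for KO1 and 3.17 and 3.37 for KO2. By this measure it ranked 65th of 20559 genes for the mean of the lines, 102nd for KO1 and 116th for KO2. The line comparisons share their 4 controls. In bulk RNA, more cells that express a gene and more RNA per cell cannot be told apart.

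The controls were alike for SLC19A3 although they split for other genes: controls 3 and 4 averaged 1.07 times controls 1 and 2. KO2 was 0.46 ± 0.23 (SE) lower than KO1 on the log2 scale. The rescue libraries stayed near the knockout level, at 0.755 of it in line 1 and 0.805 in line 2, still 9.94 and 7.71 times the control mean. Rescue libraries were below the knockout library of the same line and number in all 4 pairs, with ratios of 0.632 and 0.859 in line 1 and 0.757 and 0.855 in line 2. The fitted difference of rescue from knockout was -0.36 ± 0.17 (SE, log2). With the genotype field in place of the title it was 0.23, and with only the 8 libraries whose labels agree it was -0.08, so its direction depends on which label is taken. Across the 8 knockout and rescue libraries HKDC1 varied 31.4-fold, from 49.2 to 1544 CPM, while SLC19A3 varied 1.94-fold.

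**Figure D1:**
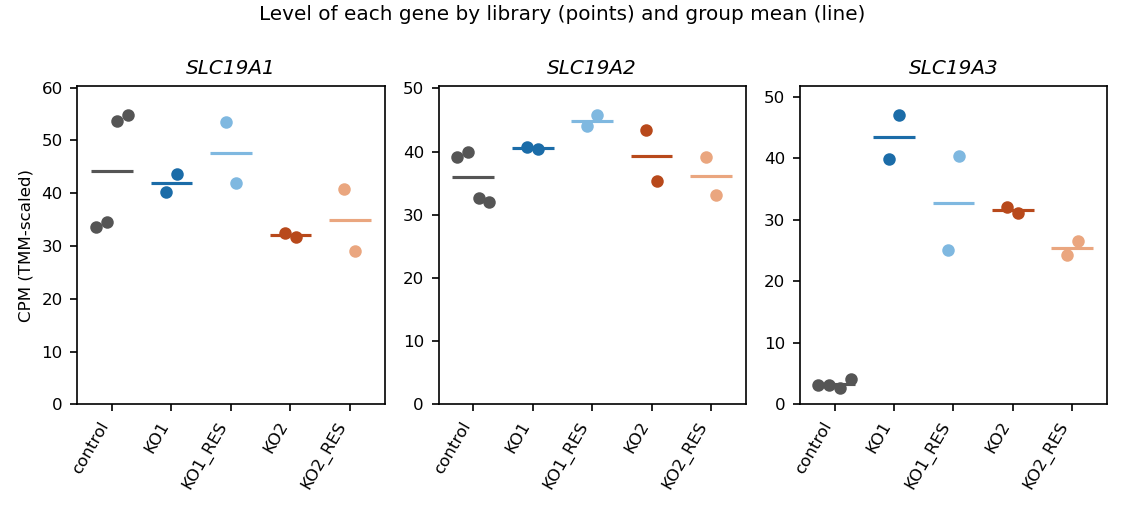
Level of each gene in CPM (vertical axis, starting at 0 in each panel) in every library, grouped by control, KO1, KO1_RES, KO2 and KO2_RES; points are libraries and horizontal lines are group means. SLC19A3 lies between 2.66 and 4.17 CPM in the controls and between 24.3 and 47.1 CPM elsewhere, while SLC19A1 and SLC19A2 stay between 29.02 and 54.8 CPM in every library.

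The bases just before the transcription starts of the 2 thiamine carriers are shown because SLC19A3 and SLC19A2 share a substrate and differed in these libraries. Both come from RefSeq on GRCh38.p14, cover 250 bases before an annotated start, and are read 5′ to 3′ on the minus strand. The SLC19A3 stretch is chr2:227718029-227718278, and the SLC19A2 stretch, the first of 2 annotated, is chr1:169485971-169486220. Capitals mark matches, on either strand, to GGGCGG (the GC box), to ACGTG and to GCGTG (cores of hypoxia response elements), to CACGTG (an E-box, which contains the first of these cores) and to CCAAT (the CCAAT box).
SLC19A3: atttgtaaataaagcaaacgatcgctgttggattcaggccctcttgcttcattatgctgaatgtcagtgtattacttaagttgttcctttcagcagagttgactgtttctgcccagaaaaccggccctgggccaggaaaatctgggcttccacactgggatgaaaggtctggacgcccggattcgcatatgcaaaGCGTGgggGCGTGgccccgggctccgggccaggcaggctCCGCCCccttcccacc
SLC19A2: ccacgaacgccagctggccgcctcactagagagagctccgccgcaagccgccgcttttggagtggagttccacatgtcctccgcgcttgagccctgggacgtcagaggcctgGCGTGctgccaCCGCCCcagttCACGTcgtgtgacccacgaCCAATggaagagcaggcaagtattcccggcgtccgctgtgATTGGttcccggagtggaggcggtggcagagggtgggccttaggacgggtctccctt

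The SLC19A3 stretch held 1 match to the GC box and 2 to the GCGTG core, and none to the ACGTG core, the E-box or the CCAAT box. The SLC19A2 stretch held 1 match to the GC box, 1 to each of the cores, 2 to the CCAAT box and none to the E-box. Among 34943 stretches of the same length before annotated starts, 42.5% held a GC box, 18.5% the ACGTG core, 32.2% the GCGTG core, 6.32% the E-box and 32% the CCAAT box. These are letter matches only, and binding was not measured. Promoters were matched for all 3 carriers.

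SLC19A2 (ENSG00000117479.8, chromosome 1), thiamine transporter 1, is the carrier whose loss causes thiamine-responsive megaloblastic anaemia. It stood at 39.2, 39.9, 32.7 and 32.0 CPM in controls 1 to 4, at 40.8 and 40.4 in KO1, at 43.4 and 35.3 in KO2, at 44.0 and 45.8 in KO1_RES and at 39.2 and 33.1 in KO2_RES. The 4 libraries of line 1 lay just above the highest control, those of line 2 overlapped with the controls, and the whole range across 12 libraries was 32.0 to 45.8 CPM. Its log2 fold change was 0.15 ± 0.11 (SE) for knockout against control (edgeR quasi-likelihood test, adjusted p = 0.385), 0.17 ± 0.13 for KO1 (adjusted p = 0.407) and 0.13 ± 0.13 for the KO2 line (adjusted p = 0.608). The rescue minus knockout value was 0.01 ± 0.11 (adjusted p = 0.998).

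Per kilobase of exon, SLC19A3 was the lowest of the 3 carriers in control cells, at 0.426 CPM per kilobase against 4.42 for SLC19A1 and 8.13 for SLC19A2, and no 2 of these overlapped between control libraries. In knockout cells SLC19A3 reached 4.85 CPM per kilobase, beside 3.70 for SLC19A1 and 9.04 for SLC19A2. Libraries of SLC19A3 overlapped there with those of SLC19A1 and not with those of SLC19A2. The place of SLC19A1 depends on the length used. With the longest transcript as the length, SLC19A1 (11.6) came above SLC19A2 (9.80) in control, and in knockout SLC19A1 (9.71) came above SLC19A3 (7.19) and below SLC19A2 (10.9).

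Taken as a share of the summed level per kilobase of SLC19A2 and SLC19A3, SLC19A3 made up 5.04% ± 1.26 (SD, n = 4) in control, 34.7% ± 4.31 (n = 4) in knockout and 28.96% ± 4.24 (n = 4) in rescue. The control libraries spanned 4.38% to 6.92%, and the lowest knockout and rescue libraries were at 29.7% and 24.6%. The sum itself was 8.56 ± 0.924 CPM per kilobase in control, 13.9 ± 1.36 in knockout and 12.9 ± 2.0 in rescue (SD, n = 4 each). In knockout and rescue the SD spans libraries of both lines. Shares and sums also depend on the length used. With the longest transcript as the length, the shares were 6.13%, 39.6% and 33.4%, and the sums 10.4, 18.1 and 16.6 CPM per kilobase. SLC19A2 thus remained the more abundant transcript of the pair in every library.

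**Figure D2:**
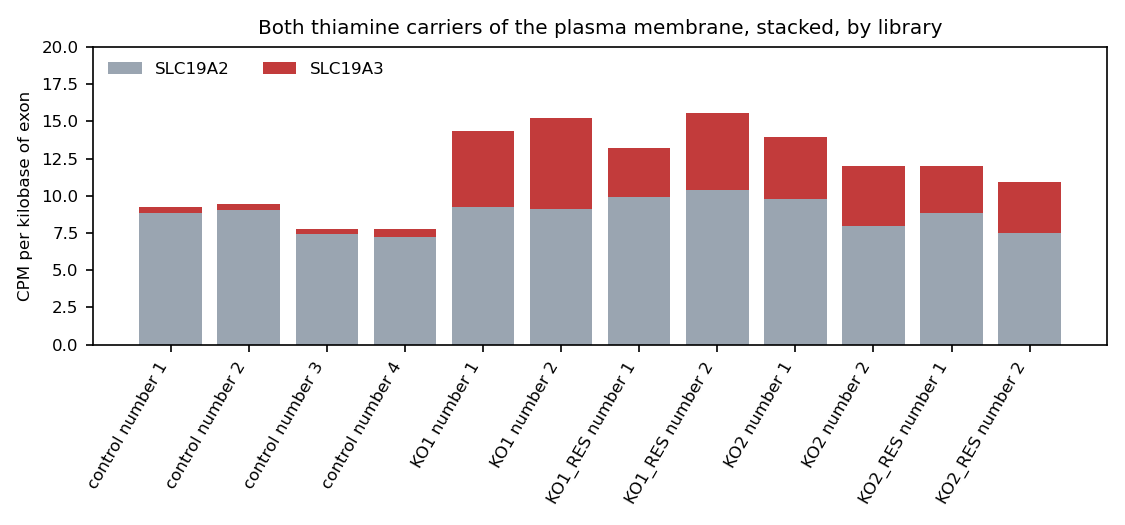
Level of SLC19A2 (grey) and SLC19A3 (red) in CPM per kilobase of exon (vertical axis), stacked, for each of the 12 libraries. SLC19A3 adds a thin band in the 4 controls, 4.38% to 6.92% of the sum, and at least 24.6% in the other 8 libraries.

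SLC19A1 (ENSG00000173638.14, chromosome 21) split the controls: 33.7 and 34.6 CPM in controls 1 and 2, 53.7 and 54.8 in controls 3 and 4. It stood at 40.2 and 43.7 CPM in KO1, at 32.5 and 31.6 in KO2, at 53.5 and 41.9 in KO1_RES and at 40.7 and 29.02 in KO2_RES. Both KO2 libraries were below all 4 controls, and the KO1 libraries lay between the control pairs. The log2 fold change was -0.27 ± 0.19 (SE) for knockout (edgeR, adjusted p = 0.363), -0.08 ± 0.23 for KO1 (adjusted p = 0.858) and -0.46 ± 0.23 for the KO2 line (adjusted p = 0.251). Against controls 3 and 4 alone it was called lower, at -0.56 for knockout (edgeR, adjusted p = 0.0398) and at -0.76 for KO2 (adjusted p = 0.0276). These were its only calls among the alternatives run, 23 for knockout and 20 for KO2. Over the alternatives its value ran from -0.56 to 0.10 for knockout, -0.36 to 0.30 for KO1 and -0.76 to -0.09 for KO2. The sign for knockout thus depended on the setting. The gene overlaps COL18A1, a collagen gene on the other strand, which stood at 204.2 to 244.5 CPM in controls and 92.0 to 119.3 elsewhere, and the counts used here keep the strands apart.

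With all 12 libraries neither SLC19A1 nor SLC19A2 was called in knockout against control or between the lines, by edgeR or by DESeq2. Neither had an unadjusted p under 0.05 in edgeR. The lowest was 0.0721, for SLC19A1 in KO2. Over all genes tested, edgeR called 6.75% higher and 9.36% lower for the mean of both lines, 8.36% and 9.74% in KO1, 4.79% and 5.24% in KO2, and 6.26% and 5.72% for KO2 against KO1. An unadjusted p under 0.05 was found for 31.2%, 32.4%, 24.7% and 25.9% of genes in these 4 comparisons. DESeq2 called 9.14% higher and 12.5% lower, 10.3% and 12.6%, 6.57% and 8.67%, and 8.37% and 8.22%. A pair of genes is too few to set against these shares.

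**Figure D3:**
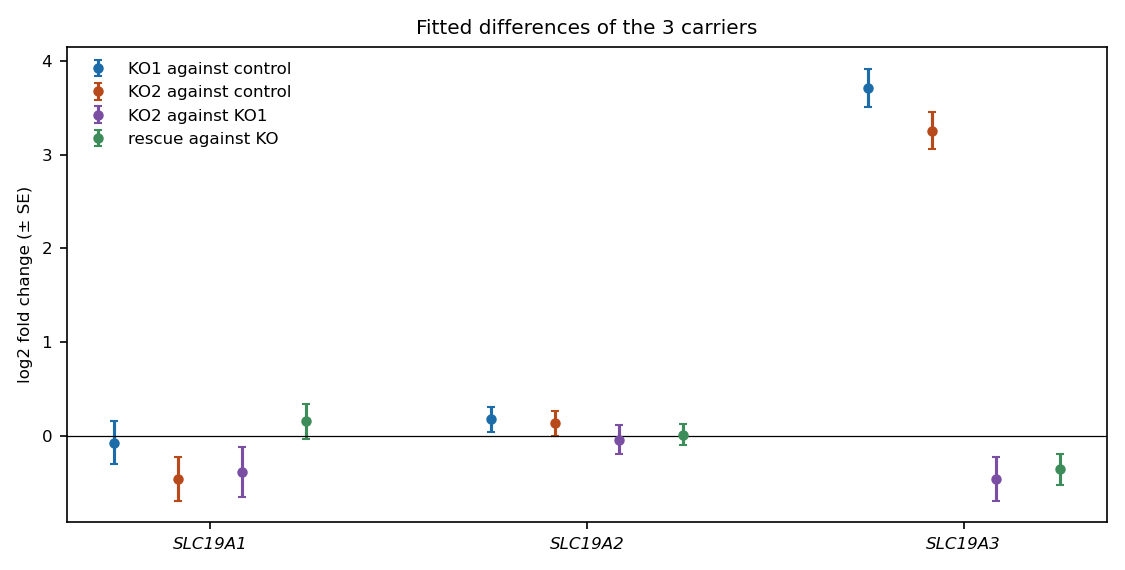
Fitted log2 fold change (vertical axis, error bars ± SE) of the 3 carriers in 4 comparisons, coloured by comparison; SLC19A3 is shown without a test. SLC19A3 stands at 3.72 and 3.26 in the 2 lines against control, and SLC19A1 and SLC19A2 lie between -0.46 and 0.17 in all comparisons shown.

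Rescue against knockout called only 2 of 20559 genes in edgeR, HKDC1 higher by 3.11 ± 0.21 (SE, log2, adjusted p = 0.000383) and CDH17, a cadherin gene, lower by 2.67 ± 0.22 on that scale. That is 0.00486% of genes in each direction, 1199 genes (5.83%) had an unadjusted p under 0.05, and DESeq2 called 0.131% higher and 0.598% lower. Blocking on the pairs of knockout and rescue libraries gave 8 genes (2510 unadjusted). Neither tested carrier was called, and neither had an unadjusted p under 0.05 or a call by DESeq2. Their differences were 0.15 ± 0.19 for SLC19A1 and 0.01 ± 0.11 for SLC19A2 (SE, adjusted p = 0.978 and 0.998). Under 21 alternatives, the pair block among them, the lowest adjusted p was 0.53 for SLC19A1 and 0.469 for SLC19A2. Of the pathway lists described next, 0 genes were called between rescue and knockout in edgeR, although 5 had an unadjusted p under 0.05 (PDK3, FOLR1, MTR, AMT and SLC52A3). DESeq2 called 1 gene, higher, of the folate and one-carbon list.

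Besides the SLC19 family, 9 genes of thiamine transport and dephosphorylation were listed, and 5 of them had enough reads to be tested. SLC44A4, the carrier of thiamine diphosphate in the colon, had no reads in any library. For the mean of both lines 0 of the 5 were called by edgeR, 2 had an unadjusted p under 0.05 (31.2% of all genes did), and DESeq2 called 1 higher and 1 lower (9.14% and 12.5% of all genes). In KO1, SLC47A1 (MATE1, an exporter of organic cations including thiamine) rose by 1.71 ± 0.38 (SE, log2, adjusted p = 0.0114), from 0.465 to 1.01 CPM in controls to 1.95 and 2.54. That call was lost without KO1 number 1 (adjusted p = 0.0516) or number 2 (0.1). SLC35F3, a candidate thiamine carrier, stood at 0.233 to 1.14 CPM in controls, at 0.08 and 0 in KO1 and at 2.35 and 2.02 in KO2. It was near or at the floor of 3 reads (0.0407 to 0.0848 CPM by library) in line 1 and had its highest levels in line 2. THTPA, the thiamine triphosphatase, stood at 3.49 to 4.34 CPM in controls and was not called in KO1 or KO2.

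Among 18 genes of the enzymes that use thiamine diphosphate and of their complexes, 15 were tested. For the mean of both lines 1 rose and 1 fell, in KO1 3 rose and 1 fell, and in KO2 0 rose and 2 fell. Over all genes 6.75% rose and 9.36% fell for the mean of the lines, 8.36% and 9.74% in KO1, and 4.79% and 5.24% in KO2. The list's median log2 fold changes were -0.05, 0.18 and -0.21, beside -0.02, -0.02 and 0.00 over all genes. The 3 that rose in KO1 all belong to the pyruvate dehydrogenase complex, which feeds pyruvate into the citric acid cycle.

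PDHX, the subunit that anchors dihydrolipoamide dehydrogenase in that complex, stood at 62.0 to 66.8 CPM in the controls and at 124.9 and 134.9 in KO1. It was at 71.6 and 65.4 CPM in KO2, 121.4 and 134.9 in KO1_RES and 67.9 and 58.6 in KO2_RES. All 4 libraries of line 1 were thus above every other library. PDHX rose in KO1 by 0.99 ± 0.10 (SE, log2, edgeR adjusted p = 0.000162), and the difference of KO2 from KO1 was -0.92 ± 0.12 (adjusted p = 0.000912). Both calls held under every alternative run for them (20 and 18).

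PDHA1, the catalytic subunit that binds thiamine diphosphate, showed the same split. It stood at 197.0 to 205.2 CPM in the controls, 321.0 and 296.3 in KO1, 366.1 and 359.8 in KO1_RES, 187.2 and 173.6 in KO2 and 182.6 and 170.1 in KO2_RES. It rose in KO1 by 0.62 ± 0.09 (SE, log2, edgeR adjusted p = 0.0015), and KO2 differed from KO1 by -0.77 ± 0.11 (adjusted p = 0.0015). These calls too held under all 20 and 18 alternatives.

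PDHB, its partner subunit, rose in KO1 by 0.50 ± 0.13 (edgeR, adjusted p = 0.0223) and lost the call under 5 of 20 alternatives, among them without KO1 number 1 (0.24) or 2 (0.0523) or control 1 (0.0592) or 2 (0.0587). DLAT and DLD, the other core subunits, were not called in either line. OGDH and DLST of the 2-oxoglutarate dehydrogenase complex had log2 fold changes between 0.01 and 0.26 in the lines and were not called, and neither was transketolase (TKT, -0.28 and -0.27).

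BCKDHB, a subunit of the branched-chain 2-oxoacid dehydrogenase, fell in both lines. It stood at 28.9, 31.4, 29.8 and 36.8 CPM in the controls, 19.0 and 21.5 in KO1, 16.6 and 19.3 in KO2, 20.3 and 22.0 in KO1_RES and 17.9 and 20.2 in KO2_RES. All 8 were below all 4 controls. The log2 fold change was -0.73 ± 0.11 (SE) for the mean of the lines (edgeR, adjusted p = 0.00178), -0.65 ± 0.14 for KO1 (adjusted p = 0.00926) and -0.82 ± 0.14 for the KO2 line (adjusted p = 0.00503). The call was lost with only the 8 libraries whose labels agree (adjusted p = 0.0827), without KO1 number 1 for KO1 (0.106) and without KO2 number 1 for KO2 (0.0776).

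HACL1, the peroxisomal lyase of 2-hydroxy and branched fatty acids, fell in KO2 by 0.69 ± 0.15 on the log2 scale (adjusted p = 0.0182), to 16.0 and 17.5 CPM from 21.8 to 30.5 in controls. It was at 33.2 and 31.9 CPM in KO1, and the difference between the lines was -0.96 ± 0.17 (adjusted p = 0.00581). The KO2 call was lost under 4 of 20 alternatives, among them without either KO2 library (adjusted p = 0.192 and 0.0942), and that between the lines without KO1 number 1 (0.0548) or KO2 number 1 (0.0633).

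A list of 9 kinases and phosphatases holds the regulators that switch the dehydrogenases off and on. Of these regulators 0 rose and 3 fell for the mean of both lines (6.75% and 9.36% of all genes). In KO1 1 rose and 4 fell (8.36% and 9.74% of all genes). In KO2 edgeR called 0, beside 4.79% higher and 5.24% lower over all genes. There 2 had an unadjusted p under 0.05 and DESeq2 called 1 lower (24.7% and 8.67% of all genes). PDK4, a kinase that inactivates pyruvate dehydrogenase, stood at 111.8 and 104.4 CPM in controls 1 and 2, 455.2 and 484.0 in controls 3 and 4, 19.9 and 13.3 in KO1 and 74.0 and 88.1 in KO2. Every knockout library was below every control, and the gap was wider in line 1. The log2 fold change was -2.98 ± 0.50 (SE) for the mean of the lines (edgeR, adjusted p = 0.00328), -4.12 ± 0.71 for KO1 (adjusted p = 0.00331) and -1.83 ± 0.62 for the KO2 line (adjusted p = 0.0911). The difference between the lines was not called (adjusted p = 0.0562).

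PDK4 kept its KO1 call under all 20 alternatives, and its call for the mean of the lines was lost with the lines pooled (adjusted p = 0.137) and with only the 8 agreeing libraries (0.302). Its size depended on the control pair. Without controls 3 and 4 it was -1.58 for the mean of the lines and -2.72 for KO1, and without controls 1 and 2 it was -3.67 and -4.81, called in each case. PDK1, another of these kinases, and PDP1, a phosphatase that reactivates the complex, were called lower at -0.62 ± 0.17 (adjusted p = 0.0337) and -1.03 ± 0.29 (adjusted p = 0.0342) for the mean of the lines. These calls were lost under 8 and 12 of 23 alternatives, single control and KO libraries left out among them, with adjusted p up to 0.212 and 0.345. PDP1 ran from -1.53 without controls 3 and 4 to -0.31 without controls 1 and 2, and followed the control pairs, at 108.4 and 95.9 CPM in controls 1 and 2 and 45.8 and 43.8 in controls 3 and 4.

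**Figure D4:**
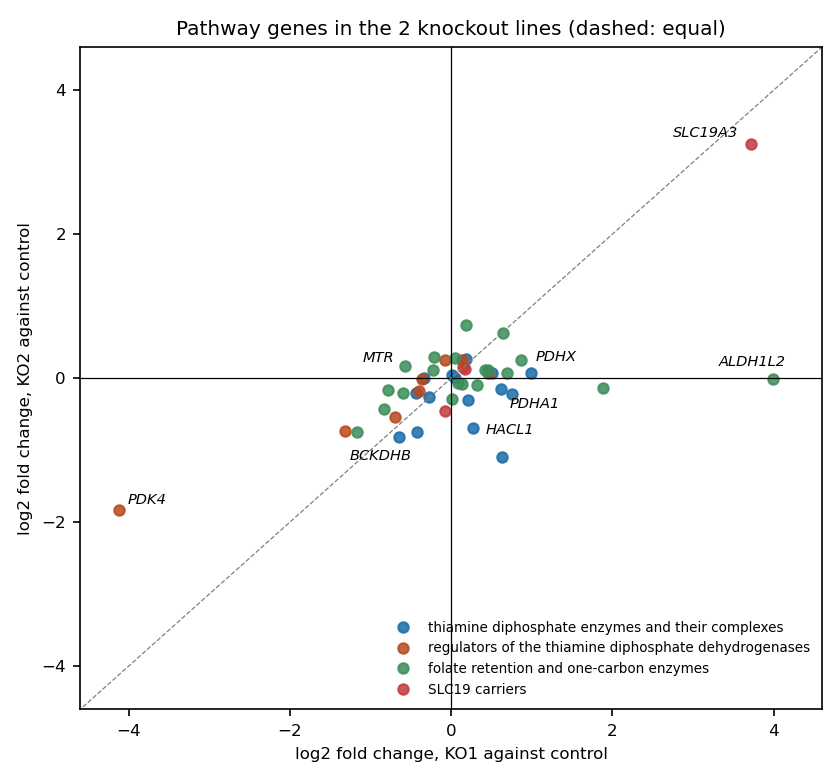
Log2 fold change of each tested gene in KO1 (horizontal axis) and in KO2 (vertical axis) against the same 4 controls, coloured by gene list; the dashed line marks equal values. SLC19A3 lies near the dashed line at 3.72 and 3.26, while PDHX and PDHA1 lie to the right of 0 at 0.99 and 0.62 in KO1 and near 0 in KO2.

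On the folate side of the family, 8 of 10 other folate carriers and receptors were tested, and edgeR called 0 of them in KO1, in KO2 or for the mean of the lines. Unadjusted p-values under 0.05 numbered 4, 1 and 2, and DESeq2 called 1, 1 and 0, all lower. Over all genes the unadjusted shares were 32.4%, 24.7% and 31.2%, and DESeq2 called 12.6%, 8.67% and 12.5% lower, so these counts of 8 are not set apart from the background. SLC46A1, the proton-coupled folate transporter, stood at 44.8 to 58.2 CPM in controls and 37.3 to 47.4 in knockout. ABCC2, an efflux pump of organic anions and antifolates, was higher in KO2 than in KO1 by 0.96 ± 0.25 (SE, log2, adjusted p = 0.0309), with 858.4 and 564.9 CPM against 367.6 and 364.6. That call was lost without KO1 number 1 or 2 (adjusted p = 0.154 and 0.147) or KO2 number 1 (0.219).

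Of 20 genes that retain folate in cells or carry one-carbon units, 3 rose and 1 fell for the mean of both lines. In KO1 4 rose and 3 fell, and in KO2 1 rose and 1 fell. The shares of all genes called higher and lower were 6.75% and 9.36%, 8.36% and 9.74%, and 4.79% and 5.24%. The list's median log2 fold changes were 0.08, 0.11 and 0.03. GGH, the hydrolase that trims the polyglutamate tail of folates, fell: it stood at 155.9 to 233.6 CPM in controls, 94.3 and 78.2 in KO1 and 120.6 and 110.4 in KO2. Its log2 fold change was -0.96 ± 0.15 (SE) for the mean of the lines (edgeR, adjusted p = 0.00269), -1.17 ± 0.20 for KO1 (adjusted p = 0.00298) and -0.75 ± 0.19 for the KO2 line (adjusted p = 0.0355). The call for the mean of the lines was lost with only the 8 agreeing libraries (adjusted p = 0.124), the KO1 call without KO1 number 2 (0.0509), and the KO2 call under 10 of 20 alternatives (up to 0.205).

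MTR, methionine synthase, differed between the lines: 82.3 to 94.5 CPM in controls, 57.6 and 60.6 in KO1 and 93.4 and 103.8 in KO2. KO2 exceeded KO1 by 0.74 ± 0.11 (SE, log2, edgeR adjusted p = 0.00246), a call that held under all 18 alternatives. The fall in KO1 was 0.58 ± 0.10 (adjusted p = 0.00351) and was lost without KO1 number 1 (0.0506). In KO1_RES, at 82.5 and 87.7 CPM, MTR overlapped with the controls.

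MTHFD2L, a mitochondrial methylenetetrahydrofolate dehydrogenase, rose in KO1 by 0.86 ± 0.15 (SE, log2, adjusted p = 0.00298), from 15.0 to 17.1 CPM in controls to 31.1 and 28.3, and this held under all 20 alternatives. MTHFD2, its relative, was called higher for the mean of the lines at 0.63 ± 0.18 (adjusted p = 0.0368). This call was lost under 11 of 23 alternatives, single libraries left out among them, with adjusted p up to 0.188. MTRR, the reductase that reactivates methionine synthase, stood at 43.8 to 44.9 CPM in controls, 58.0 and 60.4 in KO1 and 45.4 and 49.7 in KO2. It rose in KO1 by 0.42 ± 0.10 (SE, log2, adjusted p = 0.0123), a call lost under 3 of 20 alternatives, among them without KO1 number 1 (0.0889) or 2 (0.122). Its call for the mean of the lines, at 0.26 (adjusted p = 0.0455), was lost under 20 of 23 alternatives, each library left out among them, with adjusted p up to 0.544. MTHFD1L, the mitochondrial formyltetrahydrofolate synthetase, rose in KO2 by 0.74 ± 0.19 (adjusted p = 0.0364), to 119.8 and 99.9 CPM from 51.2 to 82.5 in controls. That call was lost under 10 of 20 alternatives, with adjusted p up to 0.271 without KO2 number 1.

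ALDH1L2, the mitochondrial formyltetrahydrofolate dehydrogenase, was chosen for mention after its values were seen: it stood at 0.644 to 6.93 CPM in controls, 30.3 and 59.2 in KO1, 22.1 and 54.5 in KO1_RES and 0.713 to 6.02 in all libraries of line 2. The difference between the lines was -4.01 ± 1.22 (SE, log2, edgeR adjusted p = 0.0582).

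Carriers of other B vitamins were listed for comparison, and of 8 tested 0 rose and 3 fell for the mean of both lines. In KO1 0 rose and 1 fell, and in KO2 0 rose and 3 fell. Of all genes, edgeR called 9.36%, 9.74% and 5.24% lower in these comparisons, and 6.75%, 8.36% and 4.79% higher. CD320, the receptor that takes up vitamin B12 bound to transcobalamin, fell from 69.4 to 84.8 CPM in controls to 40.7 and 36.2 in KO1 and 49.5 and 41.9 in KO2. Its log2 fold change was -0.85 ± 0.15 (SE, edgeR adjusted p = 0.00448) and was lost with only the 8 agreeing libraries (0.0991). The KO2 call of CD320 (-0.73 ± 0.19, adjusted p = 0.0375) was lost under 9 of 20 alternatives, with adjusted p up to 0.239. TCN2, transcobalamin itself, fell in KO2 by 2.09 ± 0.30 on the log2 scale (adjusted p = 0.00202), from 1.34 to 2.25 CPM in controls to 0.368 and 0.489, and was at 1.98 and 2.19 in KO1. KO2 differed from KO1 by -2.27 ± 0.32 (edgeR, adjusted p = 0.00158), and these 2 calls of TCN2 held under all alternatives run. Its call for the mean of the lines (-0.96 ± 0.22, adjusted p = 0.0146) was lost under 5 of 23 alternatives, with adjusted p up to 0.7. SLC52A1, a riboflavin carrier, stood at 0.179 to 0.514 CPM in controls and at 0 to 0.117 CPM, near the floor, in knockout. It was called lower for the mean of the lines and in KO2 (edgeR, adjusted p = 0.0258 and 0.0479). These calls were lost under 5 of 21 and 12 of 19 alternatives. SLC5A6, the biotin and pantothenate carrier, was at 87.6 to 130.5 CPM in controls and 123.7 to 158.0 in knockout and was not called.

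Among 4 vitamin B6 genes, 0 were called by edgeR for the mean of the lines and in KO2 (2 and 0 at an unadjusted p under 0.05, beside 31.2% and 24.7% of all genes, and 1 lower and 0 by DESeq2, beside 12.5% and 8.67% lower), and 1 fell in KO1: PLPBP, a pyridoxal phosphate binding protein, by 0.42 ± 0.09 on the log2 scale (adjusted p = 0.00909). Of all genes 9.74% were called lower by edgeR in KO1. PLPBP stood at 55.5 to 58.5 CPM in controls, 43.4 and 41.5 in KO1 and 60.2 and 55.5 in KO2. The call was lost under 3 of 20 alternatives, among them without KO1 number 1 (0.062) or number 2 (0.0918).

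The genes with the pattern most like that of SLC19A3 were sought by Pearson correlation of log2 CPM across all 12 libraries, among 13681 genes with a symbol and a mean of at least 1 CPM. The 5 highest were TGFB3 (a transforming growth factor beta ligand, r = 0.986), LSM10 (a subunit of the U7 particle that processes histone RNA, r = 0.985), ANKRD49 (r = 0.981), KIAA0040 (r = 0.978) and CREB5 (a transcription factor of the ATF family, r = 0.975). The libraries share their groups, so these values mainly state the contrast with the 4 controls and carry no test. Likeness in shape came with unlike size: knockout was 3.43 times control for TGFB3, 1.61 times for LSM10, 7.59 times for KIAA0040 and 5.23 times for CREB5. Without the controls, over the other 8 libraries, the 5 most similar genes were CALCOCO2 (r = 0.956), PRNP, STAM2, XPOT and KIAA0232, and 0 of the first 5 were among them.

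**Figure D5:**
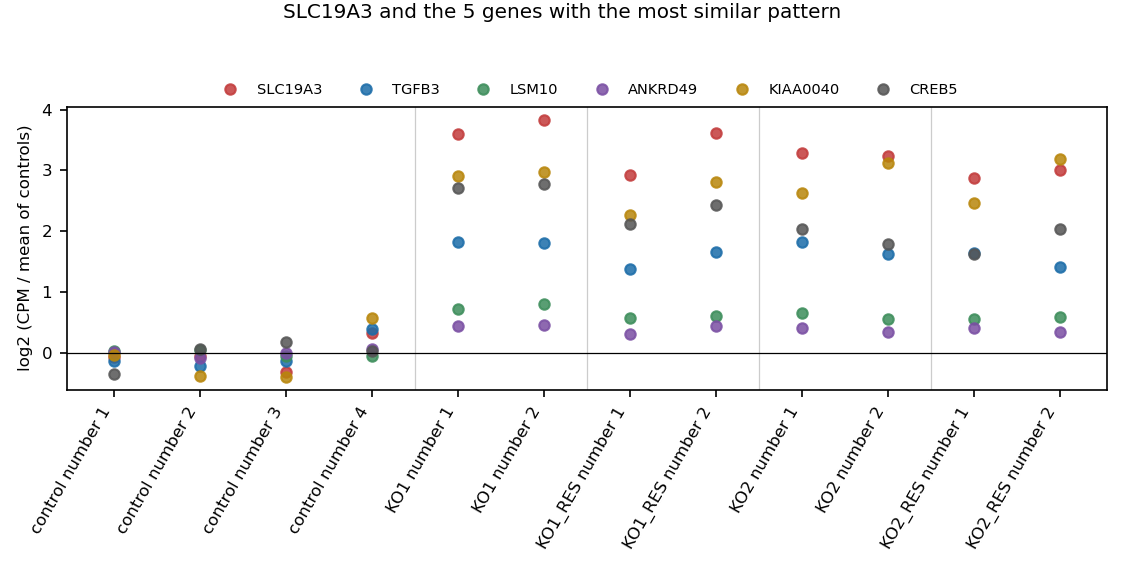
Log2 of the CPM over the mean of the 4 controls (vertical axis) for SLC19A3 and the 5 genes most correlated with it, one point per library along the horizontal axis, grouped by vertical lines. All 6 genes lie near 0 in the controls and above 0 in the other 8 libraries, SLC19A3 and KIAA0040 by the most and ANKRD49 by the least.

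By the same measure the genes most like SLC19A2 were LINC01186 (r = 0.944), SLC25A25 (a mitochondrial carrier of ATP and phosphate, r = 0.936), MPC1 (a subunit of the mitochondrial pyruvate carrier, r = 0.927), LYRM2 (r = 0.920) and MAPK14 (p38 alpha kinase, r = 0.916). MPC1 stood at 45.6 and 41.7 CPM in controls 1 and 2, 30.0 and 27.7 in controls 3 and 4, 46.8 and 50.3 in KO1 and 42.5 and 37.8 in KO2, a spread between the control pairs in the same direction as that of SLC19A2.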

How the data were processed

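Per the labels' protocols, RNA was extracted with a silica column kit and made into stranded mRNA libraries. The authors deposited raw read counts per gene for each library. STAR 2.6.0b and GRCh37 are named in the submitters' processing notes, and trimming and filters are not given in the sources used here. Column 4 (stranded) was used, since its total was 19.8 to 21.1 times that of the other strand. The 4 lines of unassigned reads, 23.2% to 31.5% of reads, were left out. Symbols came from a reference list of gene names (39538 genes) and GENCODE 29 (12800 further genes), and exon lengths and chromosomes from GENCODE 29 on GRCh38.

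Counts were tested in R 4.3.3 with edgeR 4.0.16 (filterByExpr, TMM, quasi-likelihood tests) in 5 groups by title, with Benjamini-Hochberg adjustment over 20559 genes and a call at an adjusted p under 0.05. The common biological coefficient of variation was 25.8%. Each SE of a log2 fold change was worked back from its test, as its absolute value over the square root of the F statistic. For SLC19A3 the SE is given as description only. The tests were also run on simulated counts drawn independently for each library. Those counts hold neither control pairs nor deviations shared by knockout and rescue libraries, so they cannot check the tests against either. Levels are CPM over tested genes. Levels of 0 to 3 counts count as the floor, which covers counting error only. No libraries agreed within sampling noise. Knockout and rescue libraries of the same line and number deviated together (r = 0.240 in line 1 and 0.460 in line 2 over 20559 genes) and were treated as pairs in an alternative fit.

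The members and gene lists were chosen with earlier results of these data known. Some genes that the rule or the lists cover are not reported here. Genes named are the members, up to 4 called genes with the smallest adjusted p per list and comparison, the 5 genes most correlated with SLC19A3 (log2 CPM, prior count 2) and with SLC19A2, HKDC1 and ALB, and others only where said or as uncalled examples. The alternatives took unstranded counts, DESeq2 1.42.0, RLE scaling, all genes without a filter, only the groups compared, 3 pooled groups, groups by the genotype field, only the 8 libraries whose labels agree, leaving out either control pair, replicate blocks, leaving out each library, another prior count and, added after seeing the data, likeness without the controls.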

Additional observations from a re-analysis of the deposited data

Results flagged for a closer look

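KO1 and KO2 share their 4 controls, so the difference of their fold changes is the difference of KO2 from KO1, tested in edgeR with adjustment over all genes. It was called for 9 genes of the pathway lists (values on the log2 scale). Calls higher and lower in KO2 were 0 and 3 of 15 enzyme genes, and 1 and 1 of 20 folate and one-carbon genes. They were 1 and 0 of 5 other thiamine genes, 1 and 0 of 8 folate carriers and 0 and 0 of 9 regulators. For 4 vitamin B6 genes they were 1 and 0, and for 8 other vitamin carriers 0 and 1. Over all genes edgeR called 6.26% higher and 5.72% lower, and a departure from these shares was not tested.

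Lower in KO2 than in KO1 were PDHX (-0.92), PDHA1 (-0.77), HACL1 (-0.96), MTHFD2L (-0.61) and TCN2 (-2.27). Higher in KO2 were MTR (0.74), ABCC2 (0.96), PLPBP (0.45) and SLC35F3, whose fitted difference of 5.52 rests on 0.08 and 0 CPM in KO1 and is no bound. HKDC1 also differed, at 153.4 and 146.1 CPM in KO1 and 91.4 and 49.2 in KO2. Line, HKDC1 level and anything else that set the lines apart cannot be told apart here. PDHX, PDHA1, MTR and TCN2 kept the call under all 18 alternatives, and MTHFD2L lost it under 11 of them (adjusted p up to 0.242). PLPBP lost it under 5, without any 1 of the KO1 and KO2 libraries and with no filter on low counts (up to 0.178), and SLC35F3 without KO1 number 2 (0.0542). HACL1 lost it under 2 (up to 0.0633) and ABCC2 under 3 (up to 0.219).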

How the results depend on the processing

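For knockout against control, 3312 genes were called; with 3 pooled groups 1206 were, with only the 8 agreeing libraries 72, and 1736 to 3816 with single libraries left out. KO1 calls ran from 1265 to 4193 and KO2 calls from 530 to 2331 with single libraries left out, beside 3721 and 2062. KO2 calls were 3134 by DESeq2, 3385 with no filter and 3861 without controls 3 and 4. KO2 against KO1 gave 3858 genes with only those groups and 854 to 2775 with single libraries left out, beside 2463.

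With the replicate number as a block, 7050 genes were called for knockout, 7346 for KO1, 6135 for KO2 and 5785 for KO2 against KO1. Controls 3 and 4 carry numbers that no other group holds and then carry no weight, and the controls share only a number with the knockout libraries.

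Rescue against knockout gave 2 genes, 150 by DESeq2, 406 with no filter, 4 with unstranded counts, 32 with only those groups, 8 with the pair block and 2 to 4 with single libraries left out. It gave 0 with pooled groups, by the genotype field and with the 8 agreeing libraries in edgeR (473, 4856 and 1768 genes at an unadjusted p under 0.05). By the genotype field the rescue difference of SLC19A3 turned to 0.23. Without the controls, 0 of the 5 genes most like SLC19A3 were the same. Fewer samples enter the fits that leave libraries out; other causes were not tested.

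The main limits are 2 libraries per line and group, controls that fall into 2 pairs, and labels that disagree for 4 libraries. Low-count genes (SLC35F3, SLC52A1) are limited by depth.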
